A study of Mus musculus with 6 samples.

Results

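The Hox genes are the 39 protein-coding rows of the count table whose symbol is Hoxa, Hoxb, Hoxc or Hoxd followed by a number, out of 52459 rows; antisense and opposite-strand transcripts were left out by that rule. Their levels were compared in whole brains of C57BL/6 mouse embryos at E14.5, in 3 libraries from embryos with a knockout of Mfsd7c (Mfsd7c-/-, KO) and 3 from wild-type embryos (WT). Mfsd7c, now called Flvcr2, encodes a membrane transporter; the sources used here do not give the deleted part of the gene. The labels name no litters, so each p-value reflects the spread among these 6 libraries, which may be technical. Nor do they state how far caudally each brain was cut.

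Hox proteins are homeodomain transcription factors that tell cells where they lie along the head-to-tail axis. In mammals the genes sit in 4 clusters, and their order along each chromosome follows the order of their expression along the body: low-numbered paralog groups begin in the hindbrain, and higher-numbered groups begin further back, in the spinal cord and trunk. The forebrain and midbrain normally lie in front of all Hox expression, so in a dissected brain Hox reads come from hindbrain and from any more caudal or non-neural tissue taken with it.

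The Hoxa cluster lies on chromosome 6, Hoxb on chromosome 11 from 96194316 to 96368256, Hoxc on chromosome 15 from 102921103 to 103036852 and Hoxd on chromosome 2 from 74668310 to 74765142 (GRCm38). They hold 11, 10, 9 and 9 of the genes. RefSeq promoter windows, each 300 bases long with 250 before and 50 after the transcript start, were at hand for 22 of the 39 genes, in 24 windows. Their median GC content was 57.7% and their median ratio of observed to expected CpG dinucleotides 0.626, against 52.7% and 0.384 over 32851 windows of all genes. The homeodomain core motif TAAT, searched on both strands, was present in 19 of the 24 windows (79.2%), against 58% of all windows. The Hox-Pbx motif TGATNNAT, which can overlap TAAT, was in 4 (16.7%, against 8.85%), and the retinoid half-site AGGTCA in 7 (29.2%, against 16.3%).

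Promoters of 3 genes are shown because the genes behaved differently below: Hoxb4 was abundant in WT replicates 2 and 3, Hoxb8 in WT replicate 2, and Hoxd8 in KO replicate 1 and WT replicate 1. They are 5′ to 3′ on the plus strand, RefSeq, GRCm38.p6, with TAAT or its reverse complement ATTA in capitals. They lie at chr11:96318017-96318316, chr11:96281655-96281954 and chr2:74704365-74704664.
Hoxb4: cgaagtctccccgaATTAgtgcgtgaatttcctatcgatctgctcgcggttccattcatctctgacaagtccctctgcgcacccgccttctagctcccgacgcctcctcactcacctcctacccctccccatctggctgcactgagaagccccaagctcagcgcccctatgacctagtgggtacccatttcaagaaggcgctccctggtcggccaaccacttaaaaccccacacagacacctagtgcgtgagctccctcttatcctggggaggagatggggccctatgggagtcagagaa
Hoxb8: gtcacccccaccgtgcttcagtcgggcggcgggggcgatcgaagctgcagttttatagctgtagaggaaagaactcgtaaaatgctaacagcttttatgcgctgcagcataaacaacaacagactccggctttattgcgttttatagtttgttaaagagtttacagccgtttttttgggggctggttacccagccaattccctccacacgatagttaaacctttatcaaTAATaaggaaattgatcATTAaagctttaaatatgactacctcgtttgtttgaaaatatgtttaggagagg
Hoxd8: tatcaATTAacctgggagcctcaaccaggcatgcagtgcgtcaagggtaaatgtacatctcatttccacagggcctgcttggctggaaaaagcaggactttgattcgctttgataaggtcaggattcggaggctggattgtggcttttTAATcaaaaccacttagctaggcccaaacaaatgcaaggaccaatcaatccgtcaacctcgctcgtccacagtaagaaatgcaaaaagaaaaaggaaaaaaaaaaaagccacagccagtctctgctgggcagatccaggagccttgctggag
The Hoxb4 window holds 1 match, and the Hoxb8 and Hoxd8 windows 2 each; a match describes the letters only.

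Hox transcripts were concentrated in 2 of the 3 WT libraries and scarce in all 3 KO libraries and in the remaining WT library. The 39 genes summed to 304, 63 and 181 counts in KO replicates 1, 2 and 3, and to 339, 8623 and 2228 counts in WT replicates 1, 2 and 3. In CPM, the usual per-library scaling of counts to a common total (here TMM-scaled), the sums were 7.04, 1.24 and 3.78 in KO and 7.64, 171 and 44.4 in WT. The 95% Poisson intervals, which cover counting error only, were 6.27 to 7.88, 0.954 to 1.59 and 3.25 to 4.37 in KO, and 6.85 to 8.50, 168 to 175 and 42.6 to 46.3 in WT. WT replicate 1 thus lay near KO replicate 1, and the intervals of those 2 libraries overlapped, while WT replicates 2 and 3 stood far above the other 4 and are called the Hox-rich libraries below.

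**Figure D1:**
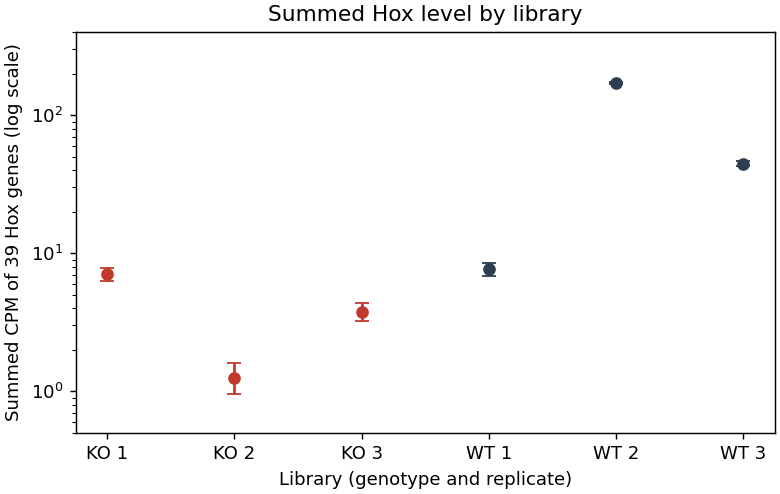
Summed CPM of the 39 Hox genes in each library on a log axis, with exact 95% Poisson intervals as bars; KO libraries are red and WT libraries dark blue. KO libraries and WT replicate 1 sit between 1.24 and 7.64 CPM, and WT replicates 2 and 3 at 171 and 44.4 CPM.

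The group means of the sum were 4.02 ± 2.91 CPM in KO and 74.5 ± 85.9 CPM in WT brains (SD, n = 3 each), so the WT spread exceeded the WT mean. The log2 ratio of the means, KO over WT, was -4.21, and it was -2.70 without WT replicate 2, -4.89 without KO replicate 1 and -4.75 without WT replicate 1. In bulk samples, fewer cells that express a gene and less RNA per cell cannot be told apart. WT replicate 2 was also the 1 library with abundant Xist, at 82198 counts against 6 to 27 in the others, so embryo sex cannot be told apart from that library. The embryonic share of beta-globin counts was 2.80%, 23.6% and 5.03% in KO replicates 1, 2 and 3, and 4.49%, 23.3% and 26.5% in WT replicates 1, 2 and 3. KO replicate 2, with an embryonic globin share like those of the Hox-rich libraries, had the lowest Hox sum; the part of embryo stage in the result was not tested. Mfsd7c itself had 119, 129 and 130 counts in KO and 206, 291 and 259 in WT libraries, lower in each KO library than in each WT library.

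Of the 39 genes, 6 had 0 counts in all libraries, and these were Hoxa11, Hoxa13, Hoxc11, Hoxc12, Hoxd11 and Hoxd12. Another 16 stayed under 1 CPM everywhere, and 17 reached 1 CPM in at least 1 library. Of those 17, 16 were highest in WT replicate 2, and in 15 of the 16 WT replicate 3 came second. The exceptions were Hoxd8, highest in KO replicate 1, and Hoxb7, whose second highest value was in KO replicate 3 at the level of single counts. In WT replicate 2, 16 genes reached 1 CPM, and in WT replicate 3, 11; in KO replicate 1 and WT replicate 1 Hoxd8 alone did, and in KO replicates 2 and 3 none of the 39.

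**Figure D2:**
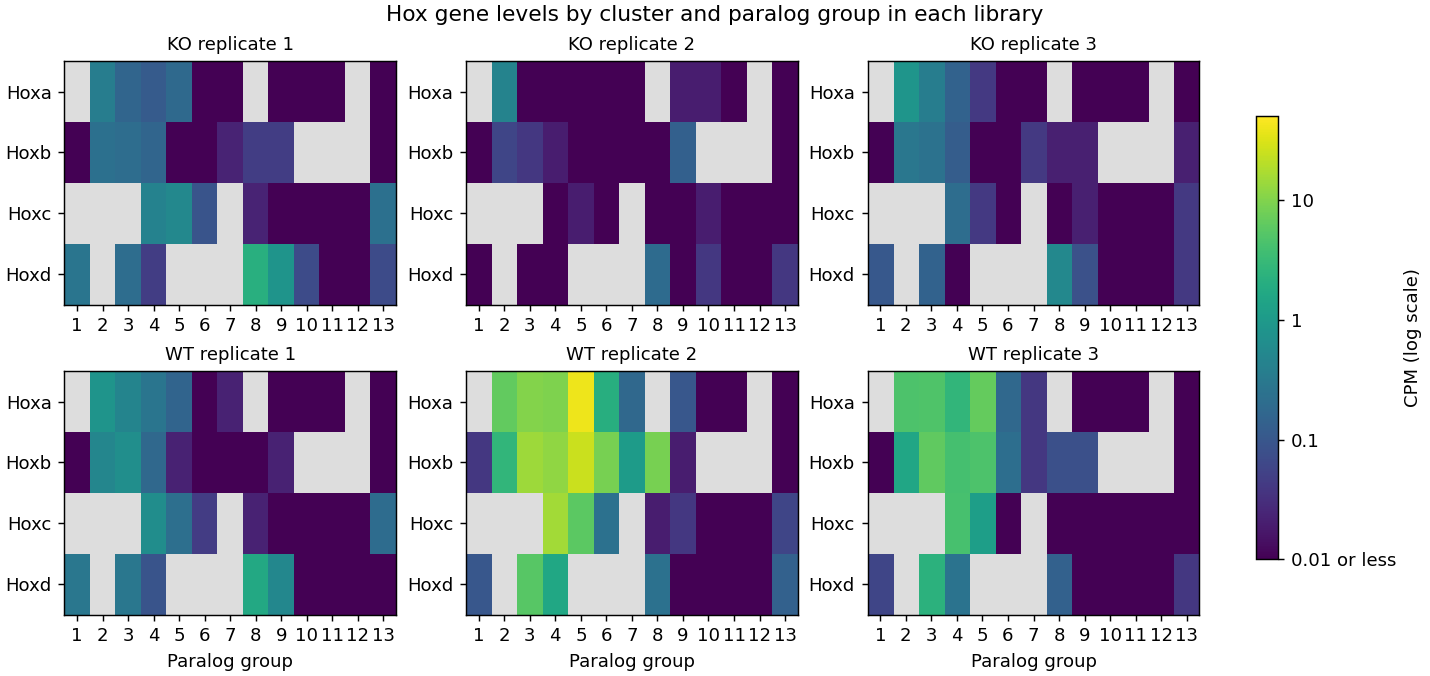
CPM of each Hox gene by cluster (rows) and paralog group (columns) in the 6 libraries, on a log colour scale with values of 0.01 or less in the darkest colour; grey marks positions with no gene or with a gene not shown. WT replicate 2 is bright from group 2 to group 8 and WT replicate 3 from group 2 to group 5, whereas KO replicate 1 and WT replicate 1 are brightest at Hoxd8.

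Hoxb1, which marks the fourth rhombomere, had counts in WT replicate 2 alone, and only 2 of them. Hoxa2, the Hox gene with the most anterior limit in the hindbrain, had 0.371, 0.453 and 0.855 CPM in KO and 0.811, 6.46 and 4.57 CPM in WT libraries. Hoxa2 was also the most abundant Hox gene in KO replicates 2 and 3, at 23 and 41 counts, and WT replicate 1 lay inside the KO range. Hoxb2, its paralog and a target of the hindbrain factor Egr2, had 0.232, 0.0591 and 0.292 CPM in KO and 0.496, 2.68 and 1.56 CPM in WT libraries. Here each KO library was below each WT library.

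Group 3 genes, which act in the caudal hindbrain, were lower in each KO library than in each WT library. Hoxb3 (chromosome 11, 96323326 to 96347930) had 0.208, 0.0394 and 0.250 CPM in KO and 0.676, 14.3 and 6.28 CPM in WT libraries. Hoxa3, also required for pharyngeal organs, had 0.162, 0 and 0.375 CPM in KO and 0.473, 10.4 and 4.80 CPM in WT libraries. Hoxd3 had 0.208, 0 and 0.146 CPM in KO and 0.293, 5.45 and 2.35 CPM in WT libraries. In each of the 3 genes WT replicate 1 was closer to the KO libraries than to the other WT libraries, and KO replicate 2 was lowest.

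Group 4 marks the most caudal hindbrain and the cord behind it. Hoxb4 had 0.162, 0.0197 and 0.125 CPM in KO and 0.180, 12.3 and 4.07 CPM in WT libraries. Hoxc4 had 0.440, 0 and 0.209 CPM in KO and 0.653, 15.6 and 4.15 CPM in WT libraries. Hoxa4 had 0.116, 0 and 0.146 CPM in KO and 0.270, 9.66 and 2.75 CPM in WT libraries. Hoxd4 followed the same order at lower levels, with 0.0463, 0 and 0 CPM in KO and 0.0901, 1.59 and 0.259 CPM in WT libraries. None of the 4 genes overlapped between the groups, though for Hoxb4 the gap between WT replicate 1 and KO replicate 1 was 1 count, 8 against 7.

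Group 5 held the largest counts. Hoxa5, a regulator of cervical identity and of phrenic motor neurons, had 0.185, 0 and 0.0417 CPM in KO and 0.158, 39.7 and 6.66 CPM in WT libraries. Hoxa5 was the most abundant Hox gene in both Hox-rich libraries, at 1998 and 334 counts. Hoxb5 had 0 counts in each KO library and 1, 1260 and 235 counts in WT libraries, which is 0.0225, 25.0 and 4.69 CPM. Against a floor of 3 counts over the KO group, Hoxb5 was at least 469-fold lower in KO than the WT mean, and that mean rests on 2 of 3 libraries. Hoxc5 had 0.533, 0.0197 and 0.0417 CPM in KO and 0.225, 5.88 and 1.20 CPM in WT libraries, so KO replicate 1 lay above WT replicate 1 and the groups overlapped.

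From group 6 to group 8, genes of the cervical and thoracic cord, the genes with over 20 counts in WT replicate 2 were far higher there than in the other 5 libraries. Hoxd8 of group 8 was not one of them, with 12 counts in WT replicate 2 against 94 in KO replicate 1 and 77 in WT replicate 1. Hoxb6 had 0 counts in each KO library and 0, 442 and 11 in the WT libraries. Hoxb8, whose neural expression is textbook spinal cord, had 2, 0 and 1 counts in KO and 0, 435 and 4 in WT libraries. Hoxa6 had 0 counts in each KO library and 0, 105 and 9 in the WT libraries, and Hoxb7 had 1, 0 and 2 in KO against 0, 54 and 2 in WT. Hoxa7, Hoxc6 and Hoxc8 reached at most 12 counts in any library. Behind group 8 the signal in WT replicate 2 ended, since the 4 genes of group 9 summed to 8 counts there and groups 10, 11 and 12 to 0, which allows up to 0.0596 CPM for each sum at a floor of 3 counts. The 4 genes of group 13 summed to 13, 2 and 5 counts in KO and 9, 10 and 2 counts in WT libraries.

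The difference between the 2 Hox-rich libraries rose step by step from paralog group 2 to group 5. The ratio of CPM in WT replicate 2 to WT replicate 3 was 1.49 for group 2 (95% interval 1.29 to 1.73), 2.24 for group 3 (2.05 to 2.46), 3.49 for group 4 (3.18 to 3.84) and 5.63 for group 5 (5.17 to 6.14), with exact binomial intervals for counting error. Neighbouring intervals from group 2 to group 5 did not overlap. It was 27.9 for group 6 (17.9 to 46.0), 15.7 for group 7 (5.84 to 59.4) and 40.6 for group 8 (22.5 to 81.9), and these 3 intervals overlapped. In groups 3 and 5 members from different clusters gave ratios with overlapping intervals, at 2.16 for Hoxa3, 2.28 for Hoxb3 and 2.31 for Hoxd3, and at 5.96 for Hoxa5, 5.35 for Hoxb5 and 4.92 for Hoxc5. In group 4 Hoxb4 had 3.03 (2.59 to 3.57), Hoxa4 3.51, Hoxc4 3.76 and Hoxd4 6.13 (3.39 to 12.0). Group 6 spread further, with 11.6 for Hoxa6 (5.90 to 26.1) against 40.1 for Hoxb6 (22.2 to 80.8). In group 8, Hoxb8 had 108, whereas Hoxd8 had 12 counts in WT replicate 2 and 7 in WT replicate 3. These are 2 libraries of 1 genotype, so the ratios compare those libraries and carry no test.

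**Figure D3:**
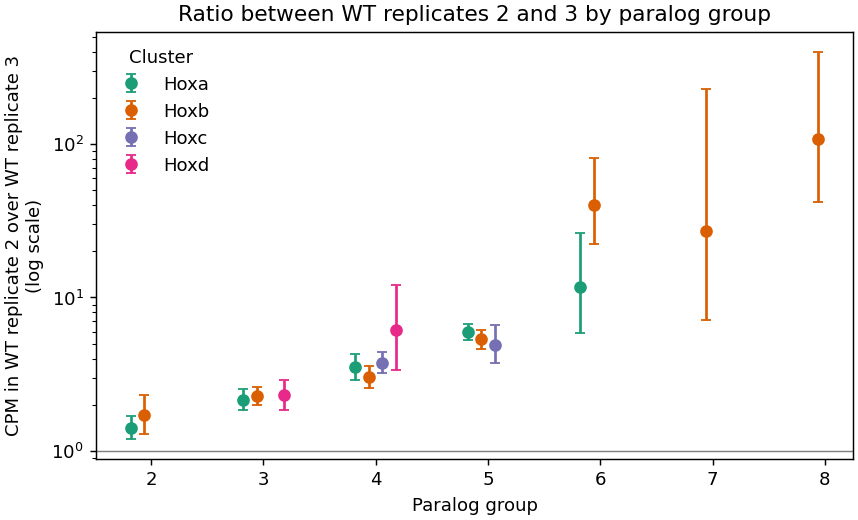
Ratio of CPM in WT replicate 2 to WT replicate 3 for 16 Hox genes with at least 20 counts in the 2 libraries together, by paralog group and coloured by cluster, on a log axis with exact 95% intervals for counting error. Hoxa2 is lowest at 1.41 and Hoxb8 highest at 108.

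Between genes, levels were compared as CPM per kb of exon. In WT replicate 2 the order was led by Hoxa5 at 21.2, Hoxb5 at 8.99, Hoxc4 at 6.08, Hoxa4 at 6.06 and Hoxb4 at 4.81 CPM per kb. In WT replicate 3 Hoxa5 led at 3.55, followed by Hoxa2 at 2.57, Hoxa4 at 1.73, Hoxb5 at 1.68 and Hoxc4 at 1.61 CPM per kb. Hoxa2 therefore ranked second in WT replicate 3 and behind group 4 and 5 genes in WT replicate 2. By cluster, Hoxa genes gave 40.3% of Hox counts in WT replicate 2 and 43.3% in WT replicate 3, and Hoxb genes 42.6% and 38.3%. Per kb the Hoxa share was larger in both libraries, at 49.1% and 52.4%, with Hoxb at 36.8% and 31.5%. Group 5 gave 41.2% of Hox counts in WT replicate 2 and 28.2% in WT replicate 3, where group 3 gave more at 30.3%; per kb group 5 led in both, at 44.6% and 32.8%.

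Some of these counts cannot be given to 1 gene. Hoxd3 and Hoxd4 share exons, 62.3% and 52.3% of their exon lengths overlapping another gene on the same strand, so the split between them is uncertain. Antisense transcripts cover 52.9% of the Hoxb3 exons, 27.3% of Hoxb2, 25.4% of Hoxa3 and 16.0% of Hoxa4, and without a stated strand setting reads of the partners cannot be told apart. Hoxa5, Hoxb4, Hoxb6, Hoxb8 and Hoxc4 overlap no exon of another annotated gene. Of these, Hoxa5, Hoxb4 and Hoxc4 were far higher in both Hox-rich libraries than in the others. Hoxb6 and Hoxb8 stood out mainly in WT replicate 2, with 442 and 435 counts there and 11 and 4 in WT replicate 3.

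Whether Hox genes differ between the genotypes was tested over all genes, and none passed. Over 19565 genes tested with edgeR's quasi-likelihood test, 0.659% were called, 0.0358% lower in KO and 0.624% higher. The low-count filter kept 10 of the 39 Hox genes, since it asks for about 0.204 CPM in 3 libraries; the 8 genes that reached 1 CPM without being tested include Hoxa5, Hoxb4, Hoxb5 and Hoxb8. Of the 10, 0 were called lower and 0 higher, and 7 had an unadjusted p under 0.05, all lower in KO, against 3.46% of all genes tested. A gene kept by the filter through the WT libraries had to be high there, so these 7 describe the 10 genes that were kept and not the family. With no filter, 0 of 33 were called, against 0.0617% of all genes called lower, and 11 had an unadjusted p under 0.05, all lower in KO, against 2.45% of all genes in that fit.

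The fold changes were large and their errors too. Hoxb3 averaged 0.166 ± 0.112 CPM in KO and 7.10 ± 6.86 CPM in WT brains (SD, n = 3 each), which is -5.42 as a log2 fold change with an SE of 1.40 (edgeR adjusted p = 0.399). Hoxb2 came nearest to the threshold, averaging 0.194 ± 0.121 CPM in KO and 1.58 ± 1.09 CPM in WT brains, which is -3.03 as a log2 fold change with an SE of 0.700 (edgeR adjusted p = 0.189). Hoxa2 had -2.81 (SE 0.760, edgeR adjusted p = 0.352), Hoxa4 -5.59 (SE 1.67, adjusted p = 0.483) and Hoxc4 -5.01 (SE 1.62, adjusted p = 0.533). The remaining 5 had log2 fold changes from -4.86 (Hoxa3) to 0.47 (Hoxd8), with edgeR adjusted p from 0.430 (Hoxd3) to 0.952 (Hoxd8). Of the 33 Hox genes with any count, 10 were lower in each KO library than in each WT library and 0 were higher; over all genes with a count, 5.25% were lower and 5.62% higher without overlap. Some of the 10 rest on single counts, as Hoxa7 and Hoxb5 had 1 count each in WT replicate 1 and 0 in each KO library. The 10 were read in the same 6 libraries and vary together, so they are not 10 separate results. An exact permutation test of 3 against 3 libraries cannot go below p = 0.10 for a single gene.

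The call turned on WT replicate 1 and on the test. Without WT replicate 1, edgeR called 4 of 15 tested Hox genes lower, against 0.773% of all genes called lower in that fit. On the log2 scale they were Hoxa2 at -3.29 (SE 0.321, edgeR adjusted p = 0.00180), Hoxb2 at -3.45 (adjusted p = 0.0101), Hoxb3 at -5.96 (adjusted p = 0.0205) and Hoxb4 at -6.33 (adjusted p = 0.0408). Hoxb4 was not kept by the filter with all 6 libraries. It was kept here through WT replicates 2 and 3, with 621 and 204 counts against 7, 1 and 6 in KO, so its call describes a gene chosen for being high there. Without KO replicate 1 and WT replicate 1, Hoxa2 and Hoxb2 were called lower (0.977% of all genes). Both fits without WT replicate 1 drop the WT library with the lowest Hox sum. Their calls describe the libraries kept and carry no conclusion about the genotypes. In the 5 fits that leave out 1 other library, 0 Hox genes were called, against 0.0149%, 0.015% or 0.02% of all genes. Without WT replicates 2 and 3, 0 of 13 tested Hox genes were called (0.0194% of all genes), and Hoxb3 had -2.02 (SE 0.759, edgeR adjusted p = 0.515) and Hoxa2 -0.53 (SE 0.527, adjusted p = 0.820); there the lone WT library is assumed to vary like the KO libraries. The DESeq2 Wald test with all 6 libraries called Hoxa4, Hoxb2 and Hoxb3 lower, against 0.307% of all genes. In the authors' deposited table, 7 of the 17 Hox genes with an adjusted p were lower in KO at 0.05, against 0.282% of all genes with one. These were Hoxa4, Hoxa5, Hoxb2, Hoxb3, Hoxb4, Hoxb5 and Hoxd4, with adjusted p from 0.000278 (Hoxb2) to 0.0458 (Hoxa4) in the authors' deposited table, which rests on the same 6 libraries.

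A few Hox genes ran in another direction across the libraries. Hoxd8 had 2.18, 0.197 and 0.542 CPM in KO and 1.73, 0.239 and 0.140 CPM in WT libraries. Hoxd9 had 36, 0 and 4 counts in KO and 23, 0 and 0 in WT libraries. Hoxc13, a gene of hair follicles and nails, had 10, 0 and 2 counts in KO and 9, 3 and 0 in WT libraries. All 3 were highest in KO replicate 1 and WT replicate 1, overlapped between the genotypes and were low in the Hox-rich libraries. Hoxd8 and Hoxd9 together made 42.8%, 15.9% and 16.6% of Hox counts in KO libraries, and 29.5%, 0.139% and 0.314% in WT libraries. Krt5, a keratin of the basal epidermis, was at 105, 3.72 and 20.4 CPM in KO and 79.9, 3.54 and 0.339 CPM in WT libraries. The 12 epidermal genes listed summed to 507, 34.8 and 99.1 CPM in KO and 441, 39.1 and 28.8 CPM in WT libraries, with none of the 12 at 0 in any library. The part of epidermal tissue in the Hoxd8 and Hoxd9 levels was not tested.

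**Figure D4:**
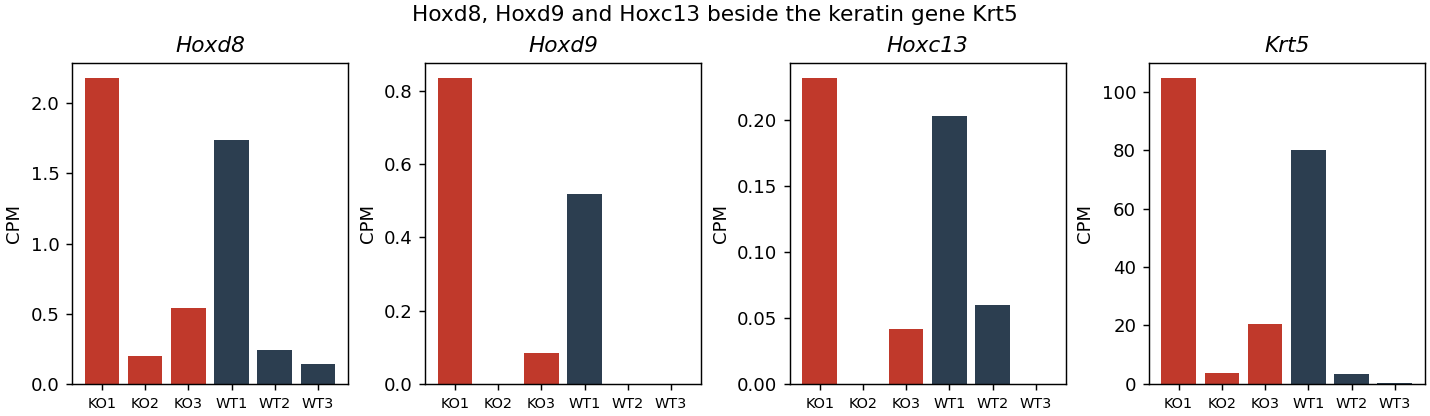
CPM of Hoxd8, Hoxd9, Hoxc13 and the keratin gene Krt5 in each library as bars from 0, KO libraries in red on the left and WT libraries in dark blue. All 4 genes are highest in KO replicate 1 and WT replicate 1, at 2.18 and 1.73 CPM for Hoxd8 and 105 and 79.9 CPM for Krt5.

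Of the other cluster transcripts that reached 1 CPM, all but Hotairm1 were highest in WT replicates 2 and 3, and the order of the other 4 libraries varied among them. Of 46 other annotated rows inside the clusters, 21 had a count and 7 reached 1 CPM. Haglr, a long non-coding RNA beside Hoxd1, had 0.486, 0.0197 and 0.125 CPM in KO and 0.496, 4.01 and 1.52 CPM in WT libraries. Hoxaas2, an antisense RNA near Hoxa3, had 0.417, 0.394 and 0.626 CPM in KO and 0.653, 4.67 and 3.69 CPM in WT libraries. Both were highest in WT replicates 2 and 3, as were Gm15050 (1.41 and 0.837 CPM), 5730596B20Rik (2.39 and 1.08), Gm11536 (1.13 and 0.359) and Hoxb3os (1.27 and 1.14). Hotairm1, a long non-coding RNA of the Hoxa cluster, had 0.695, 0.0985 and 0.626 CPM in KO and 0.586, 1.59 and 0.598 CPM in WT libraries, so WT replicate 3 lay within the KO range.

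Coding genes beside the clusters gave no call. Of 14 tested protein-coding genes within 200 kb of a cluster, 0 were called, and their log2 fold changes ran from -0.72 to 0.18 with a median of -0.07. Cbx5, on the Hoxc4 side of its cluster, had 497, 530 and 509 CPM in KO and 486, 512 and 504 CPM in WT libraries. Mtx2, on the Hoxd1 side of its cluster, had 65.7, 68.9 and 63.9 CPM in KO and 74.9, 71.2 and 66.5 CPM in WT libraries. In both genes WT replicates 2 and 3 were neither the highest nor the lowest libraries. The lowest fold change of the 14 was that of Evx1, a homeobox gene of spinal interneurons beyond the Hoxa13 end, with 1.39, 2.58 and 1.92 CPM in KO and 1.80, 4.11 and 3.81 CPM in WT libraries (edgeR adjusted p = 0.641). Evx2, its counterpart beyond the Hoxd13 end, had 2.59, 4.87 and 5.30 CPM in KO and 3.83, 6.08 and 6.02 CPM in WT libraries, and Ttll6, a tubulin-modifying enzyme gene near the Hoxb cluster, had 0.649, 1.83 and 1.79 CPM in KO and 1.10, 2.37 and 1.87 CPM in WT libraries. All 3 of these were highest in WT replicates 2 and 3 and lowest in KO replicate 1. A long non-coding RNA 59299 bases beyond the Hoxc cluster, Gm28876, had 0.255, 0.217 and 0.250 CPM in KO and 0.158, 1.33 and 1.116 CPM in WT libraries, so WT replicates 2 and 3 were highest there as well.

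Of the 10 genes with the profile nearest to the Hox sum, 2 lie inside the Hox clusters and 5 are on the list of brainstem and spinal cord neuron genes (among them Slc6a5, Pax2, Lbx1 and Prph). Likeness was the root mean square difference between centred log2 profiles over the 6 libraries, among 15483 genes with a mean of at least 1 CPM, where the median difference was 2.34. After Haglr (0.586) and Hoxaas2 (1.15) came, among others, Slc6a5 (1.38), Pax2 (1.45), Lbx1 (1.47), Lamp5 (1.48), Atoh7 (1.49), Slc38a5 (1.60) and Prph (1.68). Slc6a5, the glycine transporter of inhibitory neurons in brainstem and cord, had 1.30, 1.50 and 2.23 CPM in KO and 1.92, 10.5 and 7.64 CPM in WT libraries. Lbx1, a factor of dorsal interneurons in hindbrain and cord, had 1.20, 1.34 and 2.67 CPM in KO and 2.21, 9.38 and 5.76 CPM in WT libraries. In both, WT replicates 2 and 3 were highest and WT replicate 1 lay inside the KO range. Slc38a5, which carries glutamine and other amino acids across membranes, differs from the rest in that WT replicate 1 was also high, with 2.25, 3.39 and 2.84 CPM in KO and 13.3, 16.8 and 17.3 CPM in WT libraries; among the 10 it was the 1 gene to fall in the edgeR test (log2 fold change -2.48, SE 0.175, adjusted p = 0.000854).

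**Figure D5:**
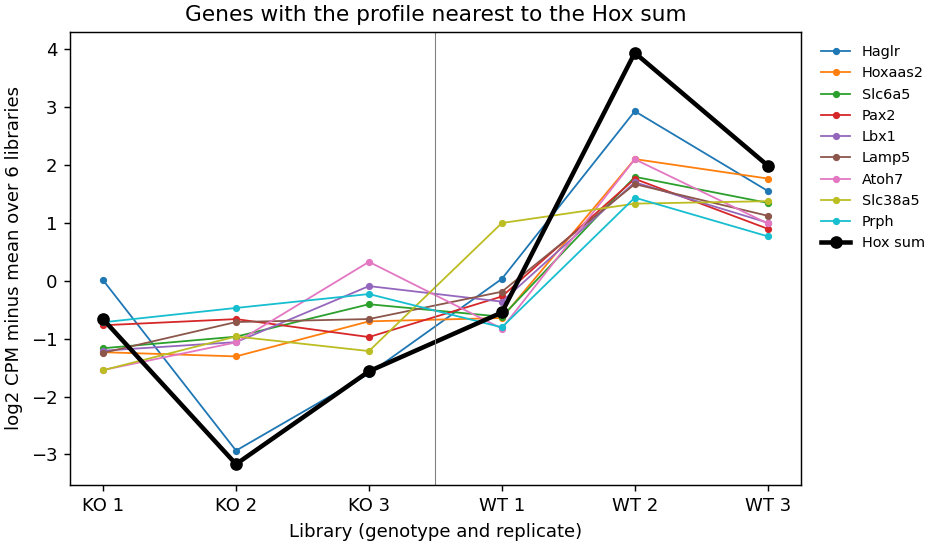
Centred log2 CPM over the 6 libraries, KO on the left and WT on the right, for the Hox sum (black) and 9 of the 10 genes nearest to it by root mean square difference. The 9 genes are highest in WT replicates 2 and 3. In WT replicate 1, genes other than Slc38a5 are closer to the KO libraries than to those 2, with Haglr, Hoxaas2, Pax2 and Lamp5 above each KO library. The Hox sum spans 7.11 on the log2 scale.

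The list of brainstem and spinal cord neuron genes summed to 110, 140 and 161 CPM in KO and 136, 219 and 189 CPM in WT libraries. Of its 26 tested members 0 passed in the edgeR test. Of the 26, 22 had a log2 fold change below 0, against 10298 of all 19565 genes tested. The median was -0.47, against -0.01 over all genes. The 3 members with the lowest p were Pax2 at -1.83 (SE 0.483, edgeR adjusted p = 0.339), Tlx1 at -2.41 (SE 0.737) and Slc18a3, the vesicular acetylcholine transporter, at -0.79 (SE 0.247). Without WT replicate 1, 5 of the 26 were lower at an adjusted p of 0.05 (among them Pax2, Prph, Slc6a5 and Tlx1), against 0.773% of all genes. The same 5 were called without KO replicate 1 and WT replicate 1, against 0.977% of all genes. Both fits drop the WT library with the lowest list sum, so no conclusion is drawn from these calls. Without WT replicates 2 and 3 the median was 0.019. That fit drops the libraries where the list was highest and keeps 1 WT library, so no conclusion is drawn from it. Genes of serotonergic neurons on this list gave overlapping values, such as Tph2 at 2.64, 3.17 and 4.88 CPM in KO and 3.27, 4.23 and 2.89 CPM in WT libraries. Slc6a2 and Dbh on this list went the other way, with log2 fold changes of 0.49 (SE 0.189, edgeR adjusted p = 0.539) and 0.34 (SE 0.272, adjusted p = 0.811). Both were lowest in the Hox-rich libraries.

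Genes of forebrain, midbrain and diencephalon, midbrain-hindbrain boundary and rhombic lip varied less in sum between libraries than the Hox genes. Forebrain genes summed to 1826, 1527 and 1515 CPM in KO and 1526, 1422 and 1411 CPM in WT libraries, lower in WT replicates 2 and 3 than in the other 4. Of 19 forebrain genes 1 was called higher in KO and 0 lower, against 0.624% and 0.0358% of all genes tested. This was Dlx2, a factor of interneuron progenitors, at 0.48 on the log2 scale (SE 0.0780, edgeR adjusted p = 0.0371). The call was lost without any 1 library other than WT replicate 1 (edgeR adjusted p from 0.0808 to 0.222). Genes of the midbrain-hindbrain boundary and rhombic lip summed to 228, 310 and 317 CPM in KO and 293, 299 and 325 CPM in WT libraries, with 0 of 13 called. Atoh1, a rhombic lip factor on that list, had 1.27, 2.01 and 2.52 CPM in KO and 2.43, 5.39 and 4.92 CPM in WT libraries. It was called lower without WT replicate 1 (edgeR adjusted p = 0.0248), against 0.773% of all genes in that fit. That fit drops the WT library where Atoh1 was lowest, so no conclusion is drawn from the call. Barhl1 had 32.9, 35.8 and 40.1 CPM in KO and 42.6, 46.6 and 45.9 CPM in WT libraries. Midbrain and diencephalon genes summed to 452, 577 and 629 CPM in KO and 544, 517 and 631 CPM in WT libraries, with 0 of 12 called. The brain check genes, such as Sox2 and Snap25, summed to 6648 to 7169 CPM in KO and 6548 to 7492 CPM in WT libraries, with none at 0.

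Among genes that work with or upstream of Hox proteins, 0 passed with all 6 libraries in edgeR, where 0.659% of all genes did. Of 9 Hox cofactors, the Pbx, Meis and Pknox genes whose proteins bind DNA with Hox proteins, 0 were called and 3 had an unadjusted p under 0.05. Meis1 had 33.7, 35.9 and 36.4 CPM in KO and 38.1, 60.4 and 52.4 CPM in WT libraries (log2 fold change -0.51, SE 0.148, edgeR adjusted p = 0.346). Meis3 had 58.4, 64.3 and 60.6 CPM in KO and 68.8, 72.8 and 75.6 CPM in WT libraries. For both genes the 2 Hox-rich libraries were highest. Without WT replicate 1, Meis1 and Meis3 were called lower, against 0.773% of all genes in that fit. WT replicate 1 was the lowest WT library for both genes, so no conclusion is drawn from these calls. The DESeq2 Wald test with all libraries called Meis1 lower, against 0.307% of all genes. The caudal factors Cdx2 and Cdx4, activators of posterior Hox genes in the early embryo, had 0 counts in each library, and Cdx1 at most 0.0591 CPM. Of the 8 upstream regulators tested 0 were called, and Egr2, the activator of Hoxa2 and Hoxb2 in the hindbrain, had 0.440, 0.394 and 0.417 CPM in KO and 0.270, 0.875 and 0.638 CPM in WT libraries.

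Retinoic acid, which switches on anterior Hox genes, is made by Aldh1a2 and degraded by the Cyp26 enzymes. Of 16 tested genes of that pathway 0 were called with all 6 libraries, against 0.659% of all genes. Without WT replicate 1, Cyp26b1 was called lower in KO (edgeR adjusted p = 0.0325), against 0.773% of all genes called lower, and Aldh1a2 (adjusted p = 0.0216) and the retinoid receptor gene Rxrg (adjusted p = 0.0381) were called higher, against 1.16% of all genes called higher. Without KO replicate 1 and WT replicate 1 the same 3 genes were called, and Crabp1 was lower as well. In that fit 0.977% of all genes were called lower and 1.34% higher. WT replicate 1, dropped in both fits, was the WT library nearest to KO for Cyp26b1, Aldh1a2 and Rxrg. No conclusion is drawn from the calls in these fits. Aldh1a2 had 20.5, 24.0 and 23.7 CPM in KO and 24.4, 14.6 and 16.2 CPM in WT libraries, lowest in the 2 Hox-rich libraries. Cyp26b1 had 61.9, 76.6 and 74.9 CPM in KO and 75.6, 96.6 and 102 CPM in WT libraries, and the retinoid-binding genes Crabp1 and Crabp2 had log2 fold changes of -0.51 (SE 0.213) and -0.33 (SE 0.132). Of 20 Polycomb and Trithorax genes, whose products hold Hox genes silent or active, 0 were called, and their median log2 fold change was -0.03. Suz12, a Polycomb subunit, had 105, 103 and 99.3 CPM in KO and 89.0, 94.4 and 95.6 CPM in WT libraries (edgeR adjusted p = 0.527).

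Markers of tissues around the brain gave 0 calls in edgeR with all 6 libraries and the low-count filter, where 0.659% of all genes were called. Choroid plexus genes (0 of 8 called) summed to 642, 980 and 1356 CPM in KO and 979, 1105 and 961 CPM in WT libraries. Ganglion and Schwann cell genes (0 of 11 called) summed to 191, 207 and 191 CPM in KO and 178, 211 and 196 CPM in WT libraries; on that list Foxd3 had 0.950, 0.630 and 0.501 CPM in KO and 1.83, 2.80 and 1.28 CPM in WT libraries (edgeR adjusted p = 0.184). Foxd3, a factor of neural crest cells, was called lower in KO with no filter (edgeR adjusted p = 0.0216), without KO replicate 1 and WT replicate 1 (edgeR adjusted p = 0.0443) and in the DESeq2 Wald test (adjusted p = 0.0107). The shares of all genes called lower in these 3 fits were 0.0617%, 0.977% and 0.307%. The Wald test also called Sox10, a factor of Schwann cells and oligodendrocyte precursors (DESeq2 adjusted p = 0.0487), which had 5.14, 3.64 and 4.11 CPM in KO and 7.14, 7.41 and 5.54 CPM in WT libraries. Each KO library was below each WT library in both genes, as in 5.25% of all genes with a count. Mesenchyme, cartilage and bone genes (0 of 13 called) summed to 204, 269 and 245 CPM in KO and 276, 272 and 273 CPM in WT libraries, where the bone gene Ibsp was at 44.2 CPM in WT replicate 1 and at most 1.04 CPM elsewhere. Skeletal muscle genes (0 of 8 called) summed to 34.0, 34.9 and 29.8 CPM in KO and 56.9, 29.3 and 33.7 CPM in WT libraries. Epidermal genes had 0 of 12 called. Erythroid genes (0 of 12 called) summed to 3547, 1792 and 3622 CPM in KO and 2491, 1171 and 1268 CPM in WT libraries, lowest in the 2 Hox-rich libraries. The part of any of these tissues in the Hox levels was not tested.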

How the data were processed

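RNA sequencing counts of 6 whole-brain libraries, 3 KO and 3 WT by their titles, were analysed. The authors deposited raw counts per gene symbol. Per the submitters' processing notes, STAR 2.5.2a, featureCounts and DESeq2 1.12.4 were used, and the builds mm10 and hg19 are listed with no role. No source used here gives the strand setting, annotation release or treatment of shared reads. The authors' deposited table holds, per the file headers, a mean normalized signal, log2 fold changes with standard errors, a Wald statistic as score, and p-values.

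The low-count filter was filterByExpr (edgeR 4.0.16), which asks for about 0.204 CPM, equal to 10 counts in a library of median size, in at least 3 libraries. This left 19565 of 52459 symbols. Libraries were scaled by TMM and tested with the robust quasi-likelihood test, KO over WT, with Benjamini-Hochberg adjustment over all genes kept and a threshold of 0.05. The standard error was the log2 fold change divided by the square root of the F statistic. CPM values use TMM-scaled totals. CPM per kb divides by the exon length of each gene in GENCODE M21 on GRCm38, which is the mm10 assembly. Intervals are exact Poisson or exact binomial at 95%, and cover counting error only. The script was tested on simulated data. Alternatives were DESeq2 1.42.0, DESeq2 size factors, no filter, a replicate block and fits without libraries, run in R 4.3.3. Total counts were 43784619 to 50549673 per library.

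The Hox genes and the 15 gene lists were chosen with earlier results of these data known. The naming rule gives each library's value for every Hox gene and every other cluster transcript that reaches 1 CPM in any library, and names 3 genes per list with the lowest p-value and the 10 profiles nearest to the Hox sum. Not every gene so chosen is described, and some are not reported here. Genes outside the rule (Hoxd9, Hoxc13, Cdx, Egr2, Tph2, Hoxb1, Aldh1a2, Rxrg and the cluster flanks) were chosen after their values were seen. Replicate numbers were not treated as pairs, since the check of shared deviations did not meet the rule for pairing.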

Additional observations from a re-analysis of the deposited data

How the results depend on the processing

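No Hox gene passed in edgeR with all 6 libraries, with TMM or DESeq2 size factors or without a filter. The number called lower was 3 in the DESeq2 Wald test, 1 with the replicate block (Hoxa2, where 0.358% of all genes were lower), 2 without KO replicate 1 and WT replicate 1, and 0 to 4 without single libraries; 0 were called higher in every fit. Genes called in all numbered 129, and 211 with no filter, 318 in the DESeq2 Wald test, 282 with the replicate block, 20 without WT replicates 2 and 3, 459 without KO replicate 1 and WT replicate 1 and 36 to 388 without single libraries. Of all listed genes, the number lower was 0, and 1 with no filter, 3 in the DESeq2 Wald test, 4 with the replicate block (Atoh1, Cyp26b1, Foxd3 and Tlx1), 10 without KO replicate 1 and WT replicate 1 and 0 to 9 without single libraries. The number higher was 1 (Dlx2), and 0 without WT replicates 2 and 3, 4 without KO replicate 1 and WT replicate 1 (Dlx2, Dlx5, Aldh1a2 and Rxrg) and 0 to 4 without single libraries. The log2 ratio of the Hox sum ran from -4.89 to -2.70 without single libraries. Per kb of exon, the Hoxb share was 36.8% in WT replicate 2 and 31.5% in WT replicate 3, and the group 5 share 44.6% and 32.8%. Among the Hox genes reported that the filter kept with all 6 libraries, the direction turned for 1 that had not passed, Hoxd8. It ran from -0.91 to 2.33, turning without KO replicate 1 and, at -0.019, without WT replicate 3, and at -0.85 without WT replicates 2 and 3. Hoxd9 and Hoxc13, not kept there, turned as well. They had 0.84 and 0.053 with no filter, and -0.795 and -1.19 without WT replicates 2 and 3. The cause was not tested. Same-numbered KO and WT libraries deviated together at correlations of 0.587, 0.310 and 0.034, and KO replicate 2 correlated best with WT replicate 3 (0.478), so the block was read as a hint only. Hox genes under 10 counts in each library are limited by depth, at a floor of 0.0591 to 0.0695 CPM per library.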
